A study of Dreissena polymorpha with 10 samples.

Results

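In the zebra mussel, 53 transcripts stood higher in September than in both June and February, and were at like levels in those 2 other months. They were selected on their measured signals in these 3 months among the 3541 transcript accessions on the array, and "raised only in September" refers to the months sampled. The zebra mussel (Dreissena polymorpha) is a freshwater bivalve, and the animals came from a natural population at Riba-Roja in the Ebro River. Total RNA came from a portion of the body whose tissues are not named, and each of the 10 arrays is 1 sample with 1 dye. June and September had 4 arrays each, 2 from females and 2 from males, and February had 2, 1 per sex. The labels describe February as before spawning, June as spawning and September as gonad resorption, and they name no treatment. They do not give the number of animals behind an array, so the spread between arrays may be partly technical.

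Zebra mussels spawn in the warm season, shedding eggs and sperm into the water. Afterwards the gonad is spent: leftover gametes break down and are taken up again, and the tissue passes into a resting state before gametes form anew. RNA from a piece of the body can mix tissues such as gonad, digestive gland, gill and mantle, and which of them were present here is not stated. A higher signal from more cells of a type therefore cannot be told apart from more RNA per cell. Reproductive stage and whatever else changed from month to month cannot be told apart here.

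The array names its probes by sequence accession, and no gene names are paired with them in the files. Looking the accessions up in RefSeq's genes of the UMN_Dpol_1.0 assembly gave 0 matches for the 53 and 0 for all 3541 on the array. Only accessions were matched and no sequences were compared. The lookup thus does not say whether the transcripts are among those genes. Roles, sequences and genome positions are therefore not given, and neither the cell types nor the tissue could be checked by marker genes. Of the 53 accessions, 48 belong to the EY series, 3 to the AM series and 2 to the AJ series. The EY series made up 90.6% of these transcripts and 82% of the 1224 accessions that were above background on all 4 September arrays.

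Values are relative log2 signals: the log2 signal of a probe minus the 75th percentile of its array, taken over the 2738 probes above background on all 10 arrays. A value of 0 is thus a bright probe, and each step of 1 is a doubling. "Above background" is the scanner software's own call. An accession was represented by its brightest probe, of which it has 3 to 5. To be chosen, this probe had to be above background on all 4 September arrays, with a September mean at least 1.5 above the June mean and above the February mean. The June and February means had to lie within 1 of each other, and the lowest September array above the highest June array. September, June and February values therefore chose the transcripts, and season differences are given below as descriptions with no test. Of 86 accessions that met the first 2 conditions, 26 were left out because June and February differed by more than 1 (June was the higher in 20 of these), and 7 more because a June array reached into the September range.

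One September array stood apart. September female replicate 2 had a mean signal of 766.3, against 8138 to 11000 on the other 9 arrays, and 22.4% of its probes were above background, against 28.9% to 36% on the others. The lowest relative log2 signal above background was -8.32 on it and -11.25 to -10.19 on the others, so that only transcripts at or above that level there could be chosen. It was on a slide of its own, September male replicate 2 was on another, and both had a different scan date from the 8 arrays of slide 1. For the 2 February arrays, titles and descriptions give opposite sexes, which leaves the season means as they are.

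The transcripts spanned a wide range of signal. Their September means ran from -8.45 to 0.85 with a median of -6.19, against a median of -2.93 over all 1224 accessions above background in September. Below -6 lay 28 of the 53 (52.8%), against 280 of the 1224 (22.9%). Only 7 had a September mean of -2 or more. The median of September minus June was 2.17, a 4.51-fold difference, and the median of September minus February was 2.40, a 5.29-fold difference. Over all 1224 accessions these medians were 0.14 and 0.20. The smaller of the differences, September over the nearer of the other months, is called the excess from here on. It was 1.5 to 2 in 23 transcripts, 2 to 3 in 25 and above 3 in 5.

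**Figure D1:**
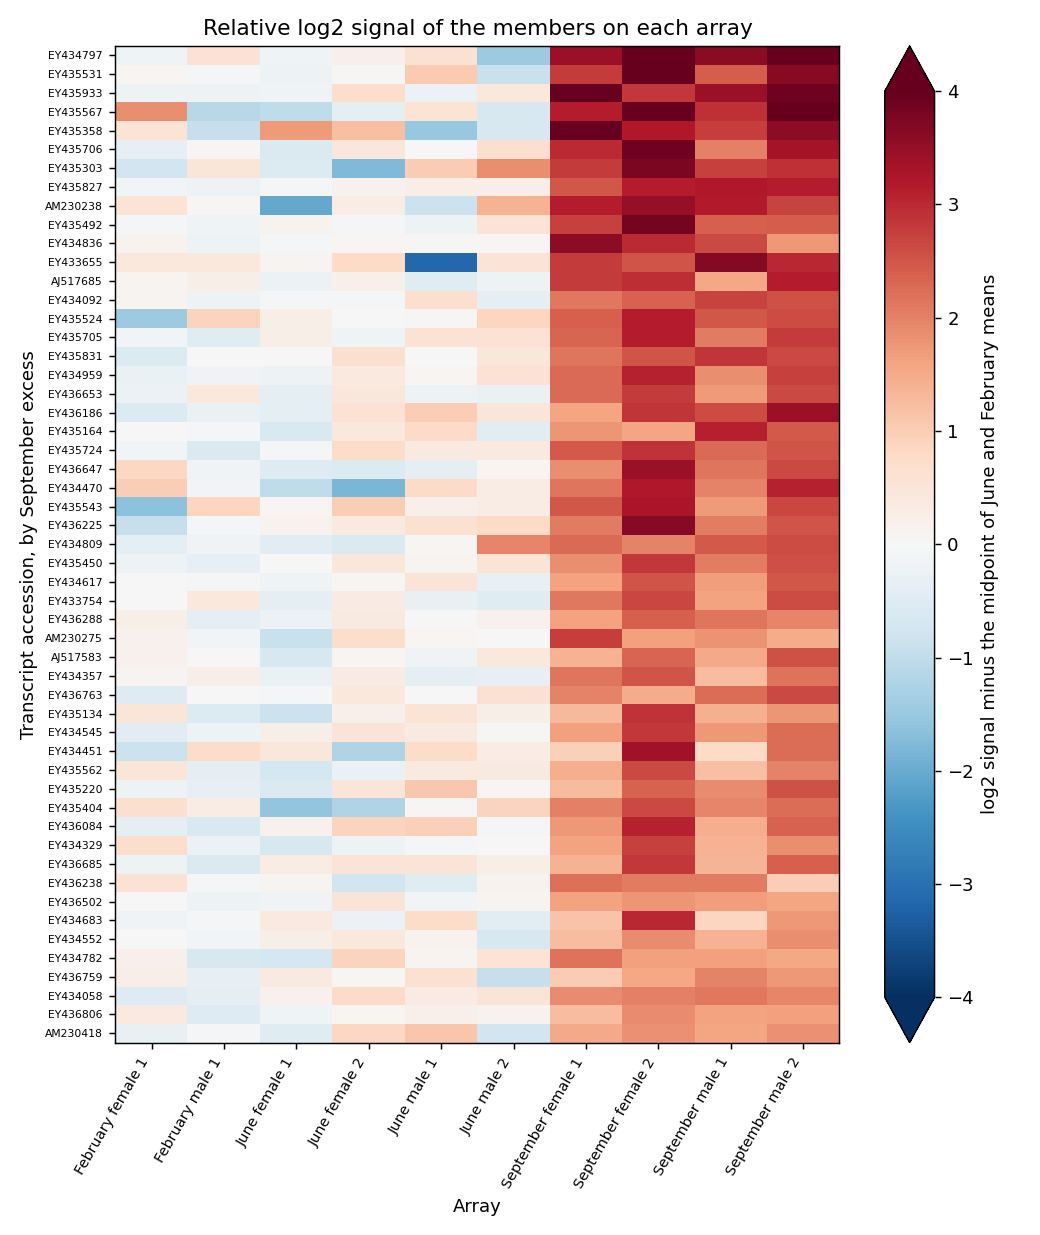
Relative log2 signal of the 53 transcripts (rows, ordered by excess) on each of the 10 arrays (columns), as the log2 difference from the midpoint of the June and February means; colours stop at 4 in either direction. All 4 September columns are red in every row, and September female replicate 2 holds the highest September value in 33 of the 53 rows.

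**Figure D2:**
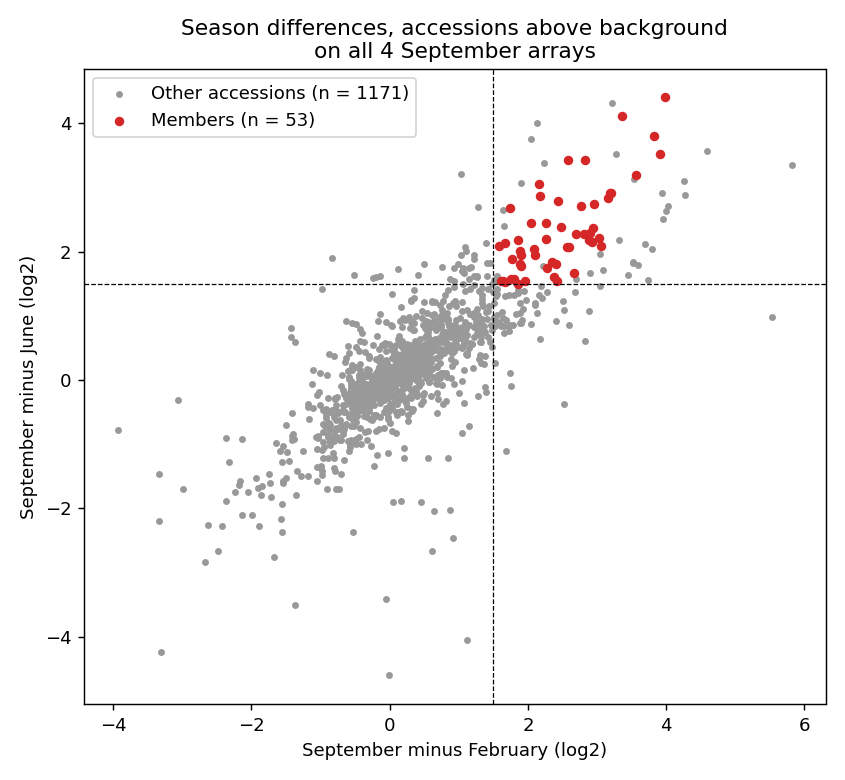
September minus June against September minus February, both in log2 units, for the 1224 accessions above background on all September arrays; the 53 chosen transcripts are red and dashed lines mark 1.5. Grey points beyond both lines failed another part of the rule, such as June and February lying within 1 of each other.

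EY434797 had the largest excess, 3.98 (15.8-fold). Its relative log2 signal was -7.59 and -5.73 on the September female arrays and -7.46 and -6.67 on the male ones. In June it was -11.24 and -10.86 in females and -10.44 and -12.50 in males, and in February it was -11.21 and -10.47. All September arrays lay at least 2.86 above the highest June array, the widest such gap of the 53. In it, 1 of the 4 June arrays and 1 of the 2 February arrays were above background. Its processed signal was 8.81 to 34.7 in June and 213.7 to 501.4 on the September arrays other than September female replicate 2. On that dim array it was 54.8 before scaling. The low side of EY434797 is thus at the limit of detection, and the size of its difference rests on dim spots. With normexp background correction the difference was 2.45 over June and 2.27 over February. No other probe of EY434797 was above background on at least 2 of the 10 arrays, so its difference is that of a single probe.

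EY435531 was close behind, with an excess of 3.81. Its September values were -8.03, -4.43, -8.43 and -7.21, in the order female 1, female 2, male 1 and male 2. Its June values ran from -11.72 to -9.78, and its February values were -10.77 and -10.92. The groups did not overlap, but its September spread was the widest of all (SD 1.81, n = 4), because the dim array, female replicate 2, lay well above the others. On the slide 1 arrays alone its excess was 2.60. Only 1 of 4 June and 1 of 2 February arrays were above background, and normexp gave 2.15 over June and 2.16 over February.

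EY435933 differed from these in being above background on all 10 arrays. Its September values were -1.93, -3.81, -3.18 and -2.74, and its June values were -6.76, -5.94, -6.87 and -6.20. February gave -6.83 and -6.82, so the 6 arrays of the other months lay within a narrow band and every September array was clear of it. Its processed signal was 398.9 to 695.6 in June and 4138 to 12990 on the 3 September arrays other than the dim one, where it was 206.3 before scaling. Its excess was 3.53 (11.5-fold) over all arrays and 3.89 on slide 1 alone.

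EY435567 was above background on none of the 4 June arrays and was at least 6.78-fold higher in September than in June, setting September against the lowest signal called above background. Its September values were -8.23, -7.02, -8.47 and -6.89. The February arrays differed widely, at -9.53 and -12.48, and 1 of the 2 was above background. Its difference over February was 1.88 without February male replicate 1 and 4.83 without February female replicate 1, and 1.73 with normexp. EY435358 had September values of -5.67, -6.44, -6.89 and -6.05, and June values of -7.95 and -8.44 in females and -11.17 and -10.27 in males. September was thus even across the arrays, while the June level was split between the sexes, and 2 of the 4 June arrays were above background.

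EY435706 was above background on all 10 arrays at a low level. It had September values of -6.72, -5.81, -7.66 and -6.35 and June values of -10.26 to -9.04, an excess of 2.92. EY435303 lay lower, at -7.86, -6.88, -7.93 and -7.75 in September, and its June arrays spread from -12.43 to -8.80, with 2 of 4 above background, and its difference over June was 1.63 with normexp, against 2.91. Of the 8 transcripts with the largest excess, EY435827 was the brightest, at -2.29, -1.66, -1.58 and -1.64 in September. Its June values were -4.84 to -4.52 and its February values -4.91 and -4.99, and its excess was 2.83 (7.11-fold).

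Among the brightest transcripts, EY436502 led with a September mean of 0.85 ± 0.08 (SD, n = 4). Its September arrays read 0.80, 0.96, 0.88 and 0.77, its June arrays -0.96, -0.29, -0.91 and -0.71, and its February arrays -0.81 and -0.997. This was the tightest September group of the 53, and the difference, 1.57 over June and 1.75 over February, was close to the limit of 1.5. On slide 1 alone its excess was 1.56.

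AM230238 had September values of -0.49, -0.14, -0.47 and -0.92, close together. Its June values were far apart, at -5.67, -3.34, -4.50 and -2.25, and its February values were -3.08 and -3.58. Its level thus varied in June by more than 3 log2 units between arrays of 1 month and converged in September, with no overlap.

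EY434092 had a September mean of -0.74 ± 0.25 (SD, n = 4), against -3.12 ± 0.45 (SD, n = 4) in June and -3.21 ± 0.24 (SD, n = 2) in February. AJ517583 had a September mean of -0.68 ± 0.59 (SD, n = 4) against -2.70 ± 0.45 (SD, n = 4) in June and -2.56 ± 0.13 (SD, n = 2) in February. AJ517685 reached -1.39 ± 0.72 (SD, n = 4) in September, from -4.18 ± 0.29 (SD, n = 4) in June and -3.83 ± 0.10 (SD, n = 2) in February. In these 3 transcripts June and February lay close to each other, and each was above background on all 10 arrays.

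At the margin of the rule were AM230418, EY436806, EY434058 and EY436759, with an excess of 1.502, 1.53, 1.54 and 1.54. The nearest accessions outside it that met its other conditions were EY435932, EY434869, EY434068 and EY436557, at 1.48, 1.46, 1.45 and 1.42. No step separates the 2 sides, so the number 53 reflects where the limit was set. AM230418 and EY434058 also had, after EY436502, the tightest September groups, with SDs of 0.16 and 0.09 (n = 4 each).

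EY434451 and EY434683 had the widest September spread after EY435531, with SDs of 1.21 and 0.95 (n = 4 each). In EY434451 the September values were -9.01, -6.60, -9.18 and -7.75, and in EY434683 they were -5.32, -3.46, -5.59 and -4.73. In both, the dim array was the highest and September male replicate 2 the next, and the excess on slide 1 was 0.81 and 0.88, against 1.77 and 1.57 over all arrays.

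Most of the 53 were detected in every month. On all 10 arrays 37 were above background, and 38 were so on all 4 June arrays. The detection counts in this paragraph describe the 53 alone and are not set against the other accessions. EY435567 was above background on no June array, and 14 others were on some. In February 43 were above background on both arrays, 8 on 1 and 2 on neither. Those 2 were EY435705, at least 5.34-fold higher in September than in February, and EY436186, at least 7.15-fold higher, both named here after their values were seen. The 37 transcripts detected everywhere had a median September minus June of 2.15, and the other 16 had 2.25. Their September levels differed, with medians of -3.98 and -7.63.

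February arrays were not used by the rule one by one, only through their mean. In all 53 transcripts every September array lay above both February arrays, which was so for 27.9% of the 1224 accessions above background in September. The September and February means were used by the rule, so this count follows largely from it. The gap between the lowest September and the highest February array was 0.06 to 3.01, with a median of 1.56. The corresponding gap to the highest June array was 0.03 to 2.86, with a median of 1.102, and 18.5% of the 1224 accessions had no overlap with June. The 2 February arrays differed by a median of 0.36 and lay within 1 of each other in 45 of the 53. June was above February in 37 of the 53 (69.8%), against 53.1% of the 1107 accessions whose months also lay within 1 of each other, with a median difference of 0.16.

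The 4 September arrays did not contribute alike. September female replicate 2, the dim array, was the highest of the 4 in 33 transcripts (62.3%), against 45.8% of the 1224 accessions. September male replicate 1 was the lowest in 23 and September female replicate 1 in 19. Relative to the midpoint of June and February, the median over the 53 was 2.10 on female replicate 1, 2.82 on female replicate 2, 2.03 on male replicate 1 and 2.54 on male replicate 2. The 2 arrays of the second scan date thus exceeded the 2 of slide 1, by a median of 0.67 in these transcripts and 0.07 over the 1224 accessions. In the 28 transcripts with a September mean below -6 that difference was 0.84, and in the 25 brighter ones 0.29. Over the 1224 accessions the same split gave 0.03 in the 280 below -6 and 0.08 in the 944 brighter ones.

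**Figure D3:**
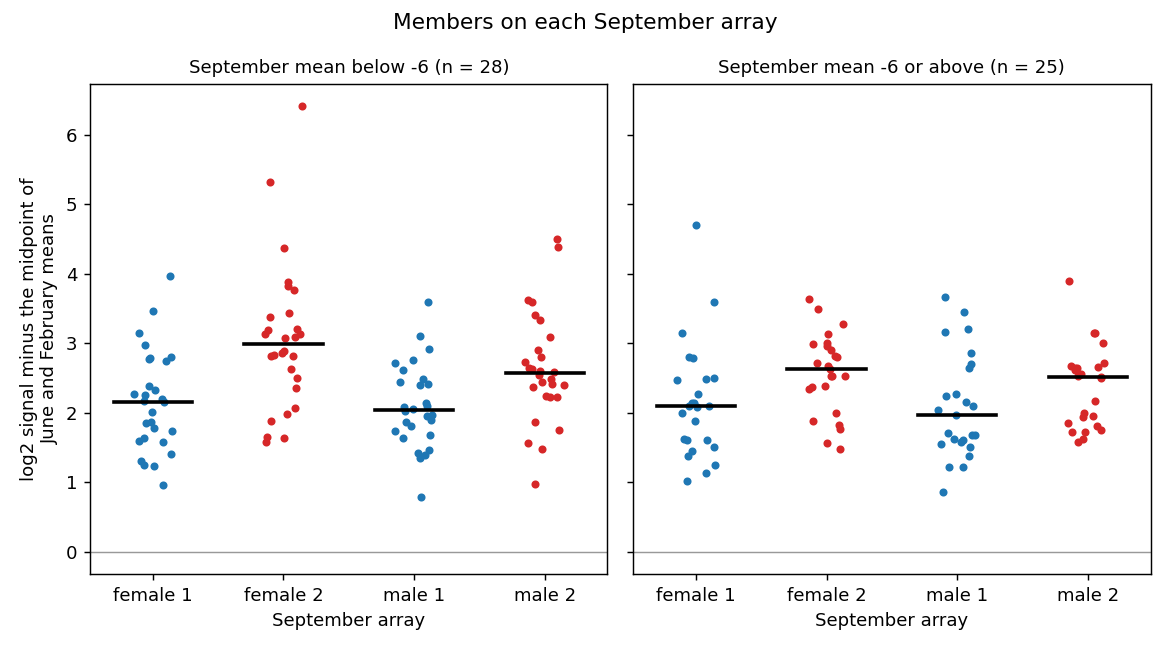
The 53 transcripts on each September array, as the log2 difference from the midpoint of the June and February means, with dim transcripts on the left (n = 28) and brighter ones on the right (n = 25); bars are medians, blue marks slide 1 and red the arrays of the second scan date. Every point is above 0, and the red arrays are higher, with medians of 2.99 and 2.57 among dim transcripts against 2.16 and 2.04 on slide 1.

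With the 2 September arrays of slide 1 alone, the 53 transcripts had an excess of 0.81 to 3.89. The median was 1.71, against 2.08 over all arrays. That all 53 lay above June on these arrays is fixed by the rule, and that they lay above February follows largely from it. The limit of 1.5 was reached by 39 of them and not by 14. Applying the whole rule to slide 1 chose 94 accessions, 38 of them among the 53. Leaving out only the dim array chose 76, of which 43 were among the 53. With all arrays kept but no call above background needed on the dim one, an alternative chosen after seeing the data, the rule chose 77, with all 53 among them.

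The other probes of an accession give a further reading of the same RNA on the same arrays, and so describe how far the difference extends over a transcript's probes. They are no separate test, since the season contrast chose the accessions. The 53 accessions have 168 probes besides the brightest, of which 97 were above background on at least 2 of the 10 arrays, in 45 accessions. The September mean was above the June mean in 92 of these 97 (94.8%), against 55.4% of all 5139 probes that bright. The median of September minus June was 2.00 and that of September minus February 2.44, against 0.08 and 0.21 over all those probes. An excess of at least 1.5 was seen in 71 of the 97 (73.2%), against 6.67% of all. In 77 of the 97 every September array was above every June array, against 13.6% of all. Among the 67 that were above background on all 4 September arrays, September was above June in 67, against 58.3% of the 2866 probes detected so, and 52 (77.6%) had an excess of at least 1.5, against 6.77%. That filter reads the September arrays, where their accessions were chosen to be high. The filter of at least 2 of the 10 arrays can also be passed on September arrays alone, and 71 of the 168 probes failed it. The shares among the 97 are therefore not free of the choice either.

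**Figure D4:**
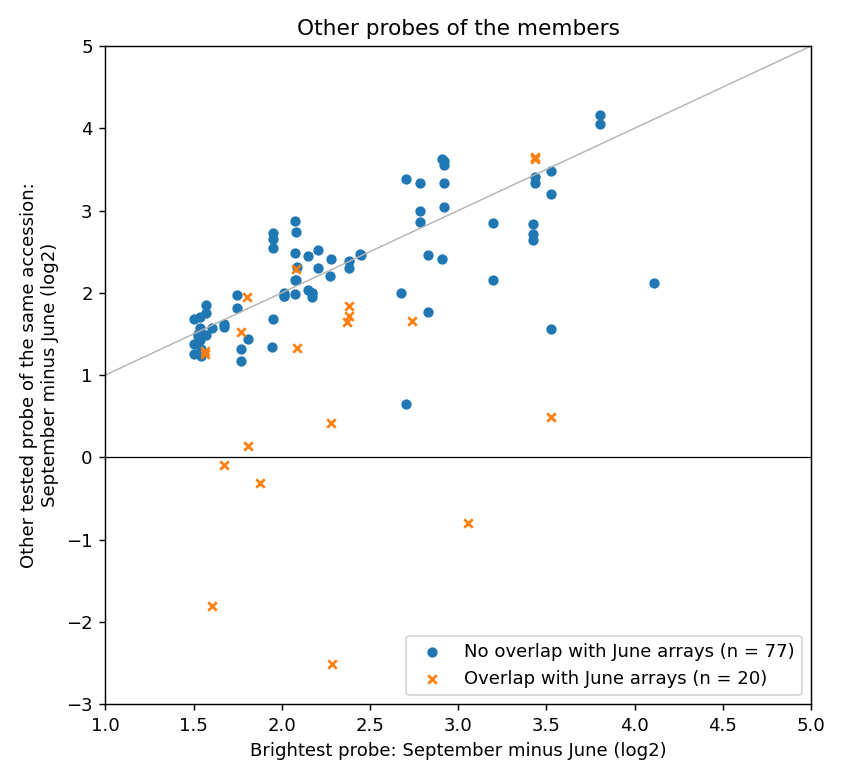
September minus June (log2) of the 97 other tested probes (vertical) against that of the brightest probe of their accession (horizontal); crosses are the 20 probes whose September arrays overlap with June, and the grey line marks equality. Most points lie near the line, and 5 of the 97 lie below 0.

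The probes of AM230238 went together over June and less so over February. Its 4 other probes gave a September minus June of 3.34 to 3.65, beside 3.43 for the brightest, and a September minus February of 1.99 to 2.80, beside 2.82, and 2 of the 4 overlapped with June. The 3 other probes of AJ517583 gave a September minus June of 1.96 to 2.00, beside 2.02. Those of EY435706 gave 3.04 to 3.60, beside 2.92, and both other probes of EY435531 gave 4.06 and 4.17, beside 3.81. Thus in EY435531, where the brightest probe was spread widely in September, the other probes had as large a difference over June. Over February their difference was smaller, at 3.62 and 2.83 in the same order, beside 3.82 for the brightest.

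EY435933 was uneven, with 0.49 to 3.47 in its 4 other probes against 3.53. In 25 of the 45 accessions every other tested probe had an excess of at least 1.5, and in 10 none did. In EY434470, EY435562, EY435705 and EY436685, named after their values were seen, the median of the other probes was below 0, at -0.80, -0.31, -2.51 and -0.12. Those 4 accessions rest on 5 other probes. Of these 3 were above background on no September array, in EY434470, EY435705 and EY436685, while the other 2 were so on 3 of 4. In EY436685 one of the 2 other probes had an excess of 1.57 with no overlap with June. In EY434470, EY435562 and EY435705, and in the 8 accessions with no other tested probe, the difference is that of a single probe.

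Sex as such was not used to choose the transcripts, and a difference between the sexes was tested. The rule did need a call above background on the dim array, which is a September female array with a high detection limit. Transcripts high on that array were thus easier to choose. The September sex difference and the female step from June are therefore not free of the rule. The question is whether September levels, or the size of the step from June, differed between the sexes. A transcript raised in a single sex could not be chosen, because the rule sets every September array above every June array. Both sexes showed the pattern in every transcript: in each of the 53 both September arrays of a sex lay above both June arrays of that sex, as the rule requires. The median of September minus June was 2.36 in females (1.07 to 4.68) and 1.98 in males (1.001 to 4.64). The female value was the larger in 36 of the 53. That count was not made over all accessions, so it is not read as a trait of these transcripts. Females and males are confounded with slides in part, since the dim array is female.

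No transcript passed the test between sexes, in limma with Benjamini-Hochberg adjustment over all 5139 probes. Over June and September together, 0 of 53 were called, with 0% of all probes called, and 3 of the 53 (5.66%) had an unadjusted p under 0.05, against 263 of all probes (5.12%). The median of females minus males was -0.01, with a range of -1.07 to 1.47. Within September 0 of 53 were called (0% of all probes) and 1 had an unadjusted p under 0.05, against 199 of 5139. Within June 0 of 53 were called (0% of all) and 4 had an unadjusted p under 0.05, against 257. The difference between the female and the male September minus June gave 0 calls (0% of all) and 4 with an unadjusted p under 0.05, against 237. Its median was 0.26 over the 53 and 0.05 over all probes. Its standard error was 0.43 to 1.83 depending on the transcript, so a sex difference of several-fold in a single transcript could go uncalled in these 8 arrays.

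The smallest unadjusted p over both months was that of EY435358, higher in females by 1.47 (SE 0.362, limma adjusted p = 0.917). Its difference was 0.41 in September (SE 0.513) and 2.53 in June (SE 0.513, limma adjusted p = 0.547), and both June female arrays were above both June male arrays. EY435404 and EY435303 were next and went the other way, lower in females in June. EY435404 was at -9.81 and -9.41 in June females and -8.19 and -7.34 in June males, a difference of -1.85 (SE 0.416, limma adjusted p = 0.572). EY435303 differed by -2.60 in June (SE 0.581, limma adjusted p = 0.572), with 2 of 2 female arrays below both male arrays. The low side of both EY435358 and EY435303 was not above background in June: 0 of 2 male arrays in EY435358, at least 4.83-fold higher in females, and 0 of 2 female arrays in EY435303, at least 2.22-fold higher in males. The 2.53 and -2.60 therefore rest on undetected spots. In September the differences of EY435404 and EY435303 were 0.22 (SE 0.416) and 0.47 (SE 0.581). In all 3 the sexes lay apart in June and close together in September, but the difference between the sexes' September minus June did not pass the test (limma adjusted p = 0.947 in each).

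**Figure D5:**
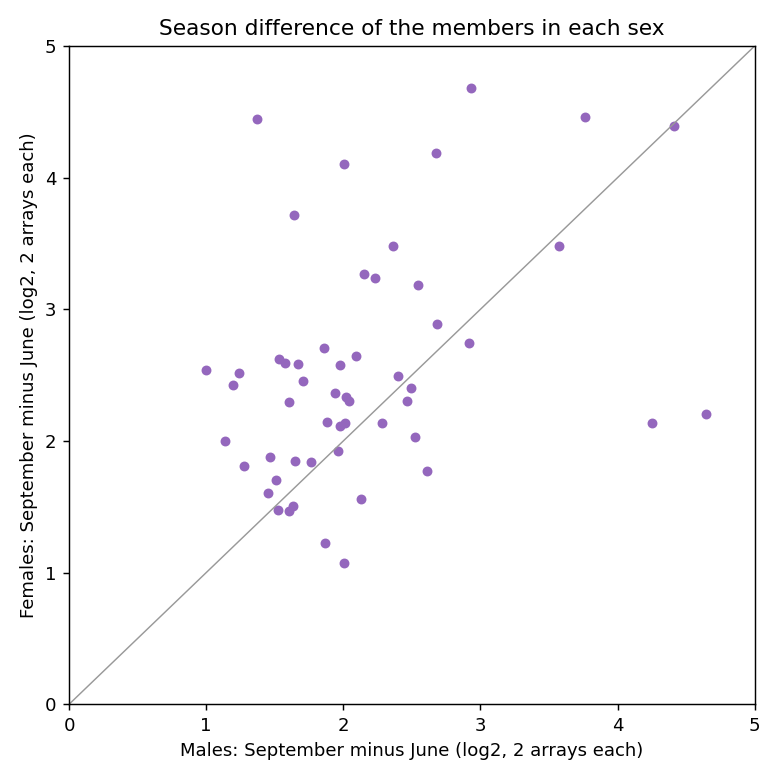
September minus June (log2) in females against that in males for each of the 53 transcripts, from 2 arrays per sex and month; the grey line marks equality. All points are above 1 on both axes, and 36 lie above the line, a count that was not made over all accessions.

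The places of the transcripts on the array and in the accession series are described here and were not tested. Their spots lay in rows 5 to 184, with a median row of 104 against 97 for all probes. Within the EY series, numbers were taken in blocks of 500. The share chosen among accessions above background in September was 1.63% (2 of 123) from EY433500, 3.33% from EY434000, 6.57% from EY434500 and 6.5% from EY435000. It was 7.86% (11 of 140) from EY435500, 3.68% from EY436000, 4.58% from EY436500 and 0 of 12 from EY437000. Of the 53, 5 had 2 spots of the same probe, and the SD between those spots was 0.03 to 0.10 (log2, median over arrays), well below the median September SD of 0.54 between arrays.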

How the data were processed

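Arrays were 1-colour Cy3 Agilent arrays of total RNA, per the labels' protocols. Per the file headers, the authors read spot intensity from the scans in Feature Extraction (version 10.5.1.1), which corrects for background within an array and does not scale arrays to each other. Besides these files the authors deposited log2 values whose scaling and centring are not given in the sources used here. Their columns correlated with the processed signals at 0.988 to 1 and had medians of 2.74 to 3.02, and they served as an alternative.

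The 536 control spots were left out, and log2 signals were averaged over the spots of each of 13654 probes. A probe counted as above background where all its spots did. Groups were formed from the titles. The sex tests used limma (version 3.58.1, in R 4.3.3), a mean per season-by-sex group (6 groups), 4 residual and 1.65 prior degrees of freedom, on the 5139 probes above background on at least 2 of 10 arrays, with calls at an adjusted p under 0.05. The fit was run on simulated data with independent noise and no dim array, with 200 probes raised in June and September females. Its outcome was read only for females against males over June and September, so it does not cover the other sex tests. The number of arrays limits the precision, and no spot was saturated (0). Transcripts named are those with the largest excess (8), highest September mean (6), smallest excess (4, with 4 outside), smallest sex p (3), most tested probes (3), and widest (3) and narrowest (3) September SD. The normexp alternative used median in place of mean spot signals. The transcripts, the rule and the tests were chosen with earlier results of these data known. Plots used Python 3.11.15 and matplotlib 3.10.9.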

Additional observations from a re-analysis of the deposited data

Results flagged for a closer look

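In 5 of the 106 groups of 4 June or September arrays examined (2 for each transcript), 1 array lay apart from the other 3, beyond the critical value of Dixon's outlier test; chance alone gives about 5% of groups. EY435827 was at -2.29 on September female replicate 1, against -1.66 to -1.58 on the other September arrays. EY433655 was at -9.07 on June male replicate 1, against -5.79 to -5.12 on the other June arrays. EY434357 was at -5.83 on June female replicate 2, against -6.53 to -6.44. EY436238 was at -8.55 on September male replicate 2, against -7.46 to -7.33. EY434782 was at -6.54 on September female replicate 1, against -7.14 to -7.05.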

How the results depend on the processing

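The number of transcripts chosen depended on the scaling and the limits, while their season medians kept direction under the 15 alternatives run for them. Scaling by the 75th percentile of every probe chose 35, 29 of them among the 53; that scaling moves every September minus June by -0.15 and every September minus February by -0.47. Slide 1 alone chose 94, a minimum excess of 1 chose 96, one of 2 chose 30, and the median over all probes of an accession in place of the brightest chose 24, 19 of them among the 53. Quantile normalization chose 46, normexp 60 and the authors' values 54, with 40, 41 and 45 shared. Leaving out 1 array gave 44 to 76. Counting a probe as above background by any of its spots, chosen after seeing the data, gave 52. The median of September minus February fell to 1.90 with normexp, which moved that of all tested probes to 0.55. Leaving out 1 array gave 2.04 to 2.26 for September minus June and 2.26 to 2.51 for September minus February. Season differences of the 20 transcripts named by the stated rule kept their sign in 600 of 600 recomputed values, but 19 moved by more than the spread between arrays. The kept signs and directions are no separate test. They follow largely from the rule, which chose differences of at least 1.5 on these same arrays. Normexp lowered both differences of EY434797, EY435531, EY435567, EY435303 and EY435706, to between 1.63 and 2.45, and left EY435933, at 3.42 over June, with the largest excess of the 8 named for it. None of the 53 was called between the sexes under any alternative (0 in each). Over all probes the count went from 0 to 16 within September without September female replicate 1, to 7 within June with slide 1 alone or slide as a block, and to 4 without September male replicate 1 (June, and June with September) or September male replicate 2 (June). With the replicate block 0 were called. Differences between same-numbered replicates correlated at -0.327 to 0.342 between groups, so the numbers do not pair the arrays. Signals near background limit the size of the difference in the 16 transcripts not detected on every array and in dim ones that were, such as EY435706 (2.92 over June, 2.11 with normexp).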
